A study of Mus musculus with 48 samples.

Results

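The genes described here are 31 genes of glucose breakdown and of the response to low oxygen, chosen by symbol from the 24328 gene symbols counted in every library. They comprise 2 glucose transporters, 9 genes of upper glycolysis, 6 of lower glycolysis, 4 lactate enzymes and transporters, 3 regulators of flux, 3 genes of the oxygen-sensing switch and 4 other hypoxia targets. Glycolysis splits glucose into pyruvate in the cytosol, and lactate dehydrogenase can turn pyruvate into lactate, which leaves the cell through monocarboxylate transporters. HIF-1α, encoded by Hif1a, is a transcription factor that prolyl hydroxylases of the Egln family mark for degradation while oxygen is present, and when it escapes degradation it raises many glycolytic genes. Natural killer (NK) cells, which are cytotoxic innate lymphocytes, raise glycolysis when cytokines activate them.

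The study sequenced RNA of NK cells from mouse spleen in 48 libraries, which fall into 14 groups and 3 experiments on BACH2, a repressor of transcription of the bZIP class. In the conditional experiment the control animals, called cWT, carried Ncr1Cre, a Cre recombinase driven by the NK cell gene Ncr1, and the animals called cKO carried Bach2flox/flox together with Ncr1Cre. Both genotypes therefore carried the Cre, which acts only in cells that have expressed Ncr1. Both were sorted as NK, iNK, mNK1 and mNK2 cells, with 3 libraries in each of the 8 groups. A second experiment held 4 libraries each of iNK, mNK1, KLRG1- mNK2 and KLRG1+ mNK2 cells from WT animals, KLRG1 being a receptor of mature NK cells. The third held bulk NK cells of mixed bone marrow chimeras, whose hosts had received WT and Bach2-KO marrow in about equal parts, with 4 libraries of each genotype. The labels give no treatment, and the age of the animals and the markers of the gates were not given in the sources used here. No label states that a replicate is a separate animal, so p-values measure the spread between libraries, which may be technical.

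Chimera libraries held 8557018 to 12927472 counts, those of the WT subsets 8973777 to 11924274 and conditional libraries 13650636 to 21029172. Rn45s, a ribosomal RNA gene, held 20.04% to 25.85% of the counts of chimera libraries, 18.6% to 29.1% for the WT subsets and 0.0890% to 0.36% for the conditional libraries. All 10 NK cell markers of a list were above a floor of 3 counts in every group. Here and below, a marker is above the floor when its counts, summed over the libraries of the group, exceed 3. A marker can thus pass with fewer counts in each library. Bach2 itself was lower in the chimera KO than in the WT libraries, with a log2 fold change of -2.89 ± 0.27 (SE, edgeR adjusted p = 2.73e-07). In the libraries labelled cKO it was not lower, with log2 fold changes against cWT of 0.58 in NK, 0.53 in iNK, 0.90 in mNK1 and 0.70 in mNK2, none of which passed the test. In mNK1 the means were 25.15 CPM in cKO and 13.5 CPM in cWT. The genotype of those libraries is therefore taken from their labels alone.

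Of the 31 genes, 29 passed the low-count filter and were tested in the chimeras, 29 in the conditional libraries and 28 in the WT subsets. Eno2, the neuronal enolase, was tested in none of them. Eno1, the ubiquitous enolase, was not tested in the conditional experiment, Egln3 not in the WT subsets, and Ldhb neither in the WT subsets nor in the chimeras. Counts of genes and medians below cover the tested genes. Levels are in CPM, the counts of a gene relative to the library total after scaling between the libraries of an experiment.

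**Figure D1:**
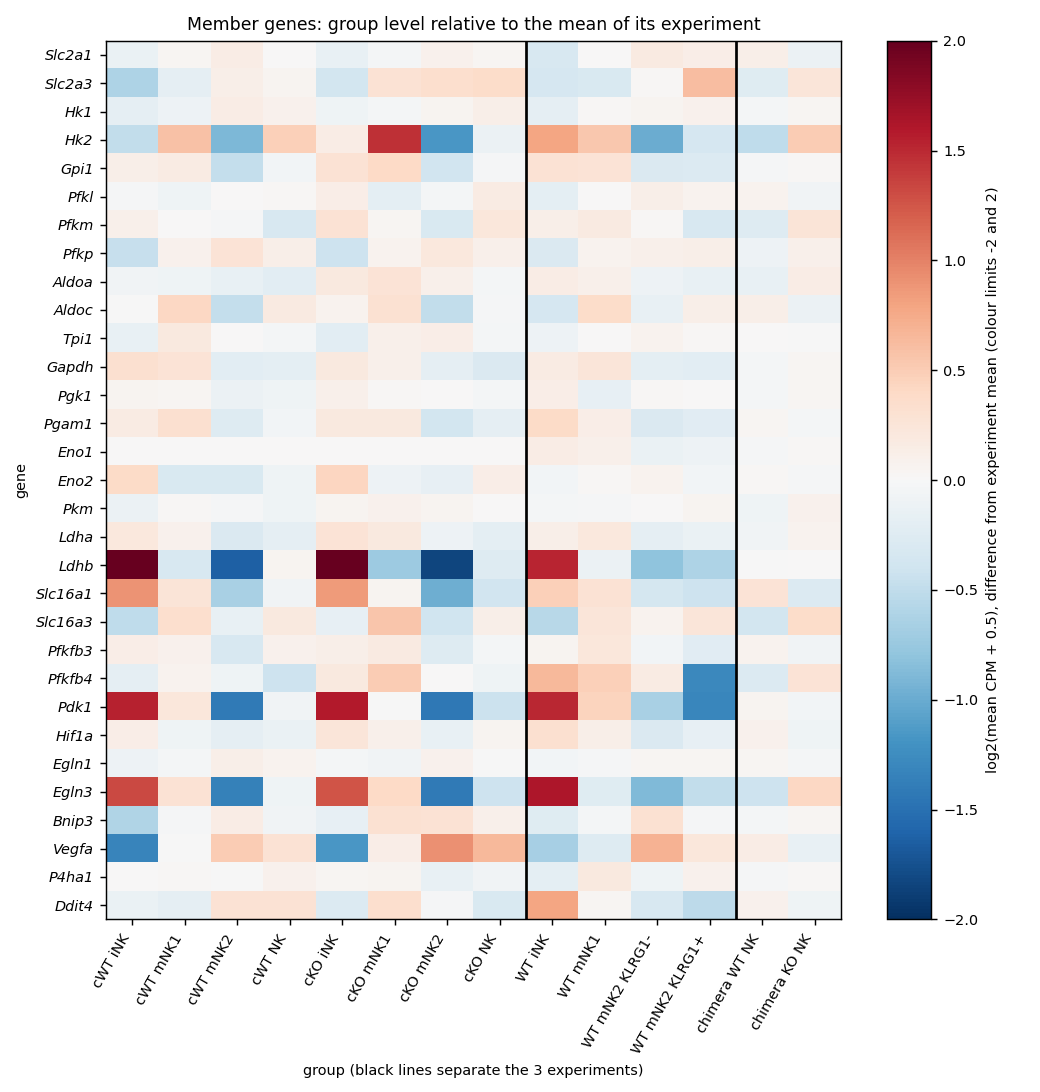
Group level of each of the 31 genes in the 14 groups, as log2(mean CPM + 0.5) minus the mean over the groups of the same experiment; red is above and blue below that mean, with colour limits at -2 and 2, and black lines separate the experiments. Pdk1, Ldhb and Egln3 run from red in iNK to blue in mNK2 in all 3 sets of animals, while Slc2a3 and Vegfa are blue in iNK, and the chimera columns are pale.

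Within families, levels could be compared after dividing by transcript length, as CPM per kb. In cWT mNK1, Hk1, the ubiquitous hexokinase that traps glucose as a phosphate, made up 97.3% ± 0.377 (SD, n = 3) of the summed level of Hk1 and the inducible Hk2. Among the phosphofructokinase genes, which commit sugar to glycolysis, the platelet form Pfkp held 85.85% ± 1.60, the liver form Pfkl 12.5% ± 1.62 and the muscle form Pfkm 1.665% ± 0.426. Aldoa held 99.6% ± 0.0871 of the aldolase level. Ldha, the lactate dehydrogenase subunit best known for making lactate, held 99.8% ± 0.106 of the level of Ldha and Ldhb. The hexokinase share leaves out Hk3, which was also detected, at 41.5 CPM in cWT mNK1. The glucose transporters were more even, with 62.2% ± 1.28 for Slc2a1 and 37.8% ± 1.28 for Slc2a3.

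Sequences upstream of 4 genes are shown because the results turn on these genes, Aldoa in the Bach2-KO libraries and those labelled cKO, and Pdk1, Ldha and Pfkp between the stages. Each is the 250 bases before an annotated RefSeq transcription start in GRCm38.p6, read 5′ to 3′ on the strand of the gene, and for genes with several starts the window with the most motif matches was taken. Capitals mark ACGTG and GCGTG, the core letters of the hypoxia response element, and TGACTCA, an AP-1 site that BACH proteins can also bind, each on either strand. The letters CACGTG read the same on both strands and count as ACGTG once on each. Aldoa, which splits fructose bisphosphate into 3-carbon sugars, has its window at chr7:126799255-126799504, minus strand.
Aldoa: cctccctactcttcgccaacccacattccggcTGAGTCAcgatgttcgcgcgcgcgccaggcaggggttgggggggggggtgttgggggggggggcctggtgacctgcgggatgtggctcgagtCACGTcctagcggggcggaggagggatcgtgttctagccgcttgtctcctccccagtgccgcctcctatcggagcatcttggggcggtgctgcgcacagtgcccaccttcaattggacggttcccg
The window of Pdk1, a kinase that switches off pyruvate dehydrogenase, is at chr2:71872974-71873223, plus strand.
Pdk1: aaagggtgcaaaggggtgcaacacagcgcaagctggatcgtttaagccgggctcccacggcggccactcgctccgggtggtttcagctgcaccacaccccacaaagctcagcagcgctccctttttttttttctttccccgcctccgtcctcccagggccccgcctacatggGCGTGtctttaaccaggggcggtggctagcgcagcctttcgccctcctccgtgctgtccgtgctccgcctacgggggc
The window of Ldha is at chr7:46845554-46845803, plus strand. The bases after this start were not found in GENCODE transcripts of Ldha, while those of the other genes shown were found in theirs.
Ldha: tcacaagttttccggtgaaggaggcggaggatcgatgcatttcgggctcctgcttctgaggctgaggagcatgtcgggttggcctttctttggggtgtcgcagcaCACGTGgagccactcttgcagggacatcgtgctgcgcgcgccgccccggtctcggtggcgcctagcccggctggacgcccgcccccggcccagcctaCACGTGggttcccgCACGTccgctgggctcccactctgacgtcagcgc
The window of Pfkp is at chr13:6648772-6649021, minus strand.
Pfkp: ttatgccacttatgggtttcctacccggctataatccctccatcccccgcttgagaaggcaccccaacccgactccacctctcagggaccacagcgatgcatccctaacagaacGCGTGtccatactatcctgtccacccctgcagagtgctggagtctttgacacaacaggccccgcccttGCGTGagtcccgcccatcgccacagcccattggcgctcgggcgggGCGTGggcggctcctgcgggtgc
Ldha holds 5 matches to ACGTG, Pfkp 3 to GCGTG and Pdk1 1 to GCGTG. Aldoa holds 1 match to ACGTG and 1 to TGACTCA.

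RefSeq windows were matched for 30 of the 31 genes, all but Slc2a3, with 44 windows in all. ACGTG was in 47.7% of these windows and in 16.6% of all 32851 windows of the genome, and GCGTG in 54.5% and 28.2%. By gene, 18 of the 30 had ACGTG and 20 had GCGTG in at least 1 window. TGACTCA was in 2.27% of the windows, that of Aldoa alone, against 4.46% of all windows. The hypoxia cores hold the letters CG, and the median number of CG pairs per window was 14 in the 44 windows and 6 in all windows, whose part in the difference between the shares was not tested. A match is a run of letters and does not show binding.

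Bach2-KO libraries and those labelled cKO were compared with their controls in 5 settings, and Bach2 itself was lower in the chimeras alone. In the chimeras 2 of 29 genes, Slc2a3 and Aldoa, were higher in KO and 0 were lower (edgeR, adjusted p under 0.05), where 5% of all genes were called, 2.64% higher and 2.36% lower. Between the mNK1 libraries labelled cKO and cWT, which share no library with the chimeras, the same 2 genes were higher and 0 lower, where 0.571% of all genes were called, 0.383% higher and 0.188% lower. The 2 genes are 6.897% of the 29, which under this test lies near the share over all genes in the chimeras and above it in mNK1. With the replicate number as a block, 6 of the 29 were called in the chimeras. All genes called there were then 742 of 10614, in place of 531. Under the block the share of the 29 lies above the share over all genes. The labels state no pairing of libraries, so the block is given as an alternative only. The hosts held marrow of both genotypes, and each of the 8 chimera libraries was closest to the one that shares its number. Whether equal numbers mark the same host is not stated.

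Slc2a3 encodes GLUT3, a glucose carrier of high affinity. In the chimeras it was at 104, 119.9, 107 and 110.2 CPM in WT and at 149, 165, 153.5 and 143.5 CPM in KO libraries. Every KO library lay above every WT library, and the log2 fold change was 0.47 ± 0.07 (adjusted p = 0.000212). In mNK1 it was at 69.8, 72.7 and 73.25 CPM in cWT and 99.25, 109.5 and 90.6 CPM in cKO. These groups did not overlap either, and the log2 fold change was 0.47 ± 0.10 (adjusted p = 0.0256). In the other fractions the log2 fold change was 0.32 ± 0.10 in NK, 0.24 ± 0.10 in iNK and 0.22 ± 0.10 in mNK2, with adjusted p of 0.2055, 0.550 and 0.961. None of these 3 passed. The libraries of iNK and of mNK2 did not overlap between the genotypes. Here and below, overlap describes the libraries of the named gene, and the share of all genes without overlap was not counted. Without cKO NK replicate 3 the comparison in NK passed.

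Aldoa was at 392, 352, 354 and 303 CPM in chimera WT and at 467, 438, 451 and 384.5 CPM in KO libraries. The highest WT library lay above the lowest KO library, and the log2 fold change was 0.31 ± 0.08 (adjusted p = 0.0220). In mNK1 it was at 683, 609 and 682 CPM in cWT and 921.5, 893 and 718 CPM in cKO. Those groups did not overlap, and the log2 fold change was 0.36 ± 0.08 (adjusted p = 0.0443). In NK, iNK and mNK2 it was 0.17 ± 0.08, 0.27 ± 0.08 and 0.25 ± 0.08, and none of these passed. The genotypes did not overlap there, which is not a test.

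Both mNK1 calls were lost when only the cWT and cKO mNK1 libraries were fitted and when any of 5 of the 6 libraries was left out, cKO replicate 3 being the exception. In the chimeras Slc2a3 passed under all 13 alternatives, while Aldoa was lost without WT replicate 2 or 4 or without KO replicate 1, 2 or 3, with an adjusted p of up to 0.0994.

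Other measures moved with the same contrasts. A list of 10 NK stage genes, early and late, summed to 3087 to 3635 CPM in chimera WT and 4935 to 6059 CPM in KO, and to 2611 to 2772 CPM in cWT and 3719 to 4054 CPM in cKO mNK1. The single genes went both ways, with 4 called higher and 3 lower in the chimeras and 2 higher and 2 lower in mNK1. In the chimeras all 9 neutrophil markers were above the floor in both groups and summed to 6.70 to 61.00 CPM in WT and 143 to 615 CPM in KO. All 10 T cell markers were above it too and summed to 162 to 235 CPM in WT and 88.8 to 103 CPM in KO, and the 10 B cell markers to 79.2 to 224 and 15.99 to 47.1 CPM. In mNK1 16 immediate early and handling stress genes summed to 12550 to 16680 CPM in cWT and 16230 to 22230 CPM in cKO, with overlap. These sums were not particular to mNK1. They were 11660 to 13860 and 16320 to 18820 CPM in iNK and 13190 to 14430 and 14920 to 16260 CPM in mNK2, without overlap. In NK they overlapped, at 10870 to 12850 and 12760 to 15670 CPM. The T cell markers summed to 265 to 272 CPM in cWT and 291 to 348 CPM in cKO mNK1, and the B cell markers to 35.8 to 44.1 and 52.3 to 64.4 CPM, both without overlap and higher in cKO where they were lower in chimera KO. The part of these measures in the results for Slc2a3 and Aldoa was not tested. In such bulk samples, fewer cells of a type and less RNA per cell cannot be told apart.

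In the remaining fractions edgeR called 0 of 29 genes between cKO and cWT. In NK 0.571% of all genes were called, 0.318% higher and 0.253% lower. In iNK 0.294% of all genes were called, 0.212% higher and 0.0816% lower. In mNK2 0.261% of all genes were called, 0.131% higher and 0.131% lower. At an unadjusted p under 0.05 there were 3 in NK, 3 in iNK and 2 in mNK2. DESeq2 called 0 of the 29 in each, where it called 128, 82 and 69 of all genes. The share of all genes at an unadjusted p was not counted, so such counts, here and below, cannot be set against it. Among the genes at 20 CPM or more, the log2 fold changes ran from -0.165 (P4ha1) to 0.32 (Slc2a3) in NK, from -0.14 (Gapdh) to 0.45 (Bnip3) in iNK and from -0.14 (P4ha1) to 0.25 (Aldoa) in mNK2. The median log2 fold change was -0.003 in NK, 0.064 in iNK and -0.018 in mNK2, beside 0.004, 0.023 and -0.018 over all genes. Bnip3, which directs mitochondria to autophagy, was at 23.4, 24.4 and 24.6 CPM in cWT iNK and 31.4, 36.75 and 30.7 CPM in cKO iNK. These libraries did not overlap, but the log2 fold change of 0.45 ± 0.12 did not pass (adjusted p = 0.1315).

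In the chimeras 9 genes had an unadjusted p under 0.05, a threshold with no share over all genes beside it. The 7 that did not pass adjustment lay on both sides of 0. Slc16a3, the lactate exporter MCT4, was at 8.27, 6.29, 11.1 and 4.59 CPM in WT and 14.8, 9.53, 14.5 and 13.3 CPM in KO, with a log2 fold change of 0.78 ± 0.24 (adjusted p = 0.0712). The groups overlapped, and DESeq2 did call it. Its relative Slc16a1, which encodes MCT1, had -0.58 ± 0.19 (adjusted p = 0.0987), and Slc2a1, the basal glucose transporter GLUT1, -0.23 ± 0.085 (adjusted p = 0.155). Hk2 had 1.28 ± 0.54 at means of 2.46 CPM in KO and 0.971 CPM in WT, Pfkm 0.55 ± 0.22, Pfkp 0.19 ± 0.08 and the pyruvate kinase gene Pkm 0.18 ± 0.08. With the replicate number as a block, Slc16a3, Pfkp and Pkm were called higher and Slc16a1 lower. Ldha had 0.14 ± 0.10. Of the oxygen switch, Hif1a had -0.19 ± 0.12, Egln1, the main oxygen-sensing prolyl hydroxylase, -0.08 ± 0.22 and Egln3 1.205 ± 0.60 at means of 1.55 CPM in KO and 0.651 CPM in WT, and none of these 4 passed. The median log2 fold change was 0.063 in the chimeras and 0.048 in mNK1, beside -0.009 and 0.006 over all genes.

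**Figure D2:**
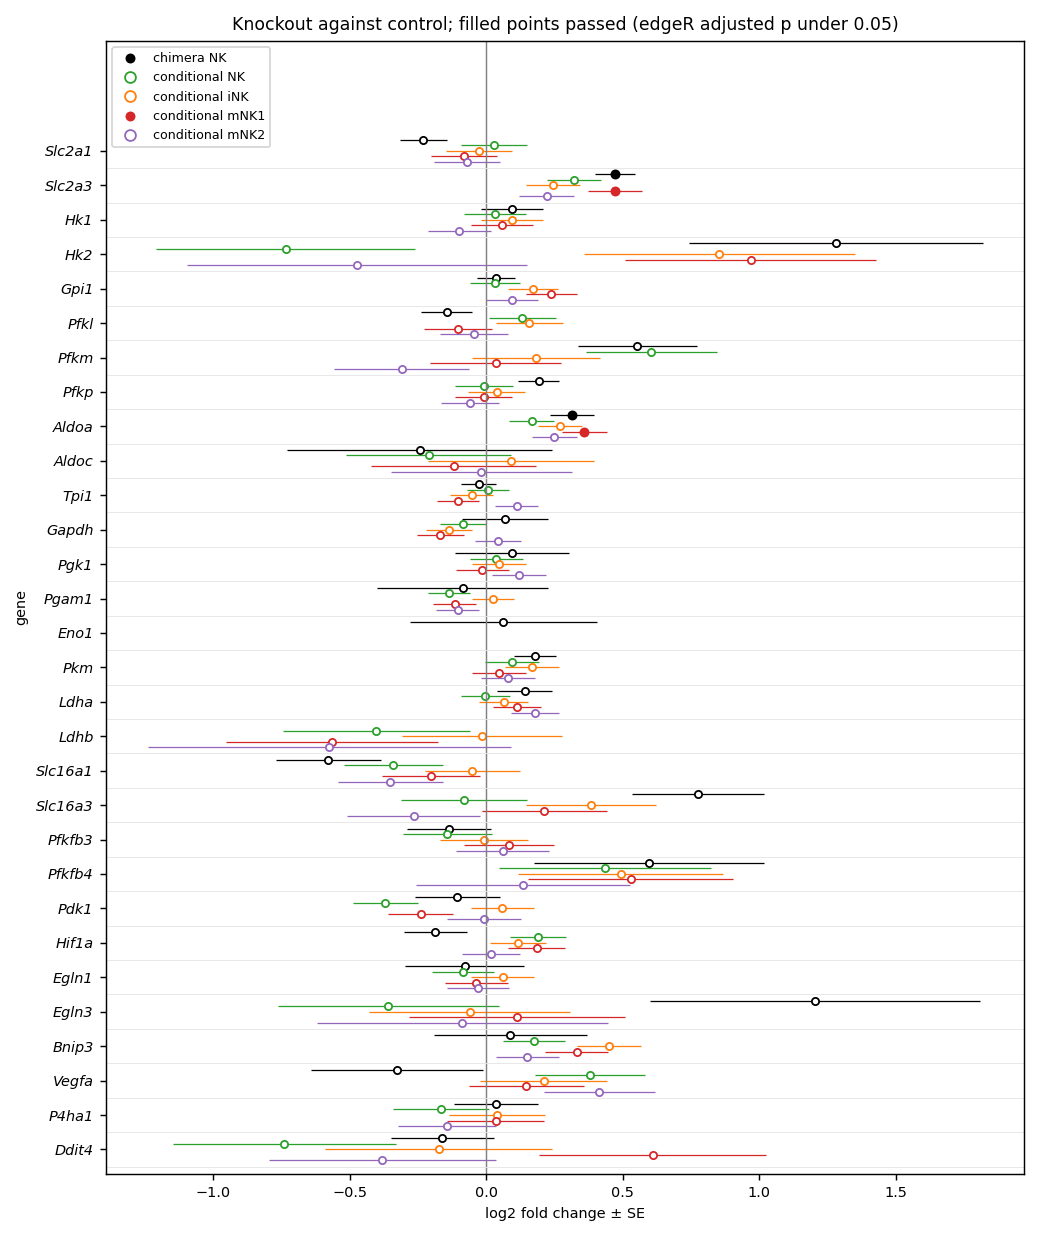
Log2 fold change between Bach2-KO or cKO libraries, as labelled, and their controls for 30 genes (Eno2 was not tested) in the chimeras and in the 4 conditional fractions; bars are SE and filled points passed the edgeR test. The filled points are those of Slc2a3 and Aldoa in the chimeras (black) and in mNK1 (red), and genes of low level such as Hk2 and Egln3 have the widest bars.

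Other genes of these pathways were followed on 6 lists. In the chimeras edgeR called 2 of 19 other glycolysis genes, 1 of 8 genes of the pentose phosphate pathway and 2 of 24 other hypoxia targets. It called 0 of 13 genes of pyruvate entry into mitochondria, 0 of 9 of the HIF pathway and 0 of 20 of mTORC1, MYC and nutrient uptake, with 1, 0 and 3 at an unadjusted p under 0.05 and 0, 0 and 0 called by DESeq2. Over the 6 lists edgeR called 5 of 93 genes, near the 5% of all genes that it called. DESeq2 called 5 of the 93 and 658 of all genes. Slc16a6, a relative of the lactate transporters, rose by 0.73 ± 0.15, H6pd, which starts the pentose phosphate pathway in the endoplasmic reticulum, by 0.48 ± 0.14 and Tpst2, a protein sulfotransferase, by 0.34 ± 0.07 (log2). Slc2a6, a relative of the glucose transporters, fell by 0.59 and Plod2, a collagen lysyl hydroxylase, fell by 1.05. In mNK1 Slc16a6 rose by 0.65 ± 0.13 and was the 1 gene of 98 on the 6 lists that edgeR called, where 0.571% of all genes were called. In NK, iNK and mNK2 edgeR called 0 of 98, with 20, 13 and 11 at an unadjusted p under 0.05 and 1, 1 and 0 called by DESeq2. Of all genes edgeR called 0.571%, 0.294% and 0.261% in these fractions, and DESeq2 called 128, 82 and 69 genes.

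Between the sorted stages the counts were larger. From iNK to mNK1 in cWT, 10 of 29 genes passed, 6 higher and 4 lower, which is 34.48% of them, where 18.5% of all genes were called, 10.2% higher and 8.29% lower. From mNK1 to mNK2, 11 passed, 1 higher and 10 lower, which is 37.93%, where 20.3% of all genes were called, 7.7% higher and 12.6% lower. The median log2 fold change was 0.05 and then -0.16, beside 0.02 and -0.03 over all genes. In the libraries labelled cKO, 7 were higher and 3 lower at the first step, where 22.7% of all genes were called, 11.3% higher and 11.4% lower. At the second step 1 was higher and 11 were lower, where 21.3% of all genes were called, 7.09% higher and 14.3% lower. Of the calls at the first step, 9 were made in the same direction in both genotypes, of 10 in cWT and 10 in cKO, and 10 at the second step, of 11 and 12. The overlap of calls over all genes was not counted.

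In the WT subsets 3 of 28 genes passed from iNK to mNK1, 1 higher and 2 lower, where 10.5% of all genes were called, 6.39% higher and 4.14% lower. From mNK1 to KLRG1- mNK2, 3 passed, all lower, where 7.29% of all genes were called, 2.18% higher and 5.11% lower. Each is 10.71% of the 28, beside 10.5% and 7.29% of all genes. Pfkp and Pdk1 were called in the same direction at the first step in cWT and WT, of 10 calls in cWT and 3 in WT. At the second step Pdk1, Gpi1 and Ldha were, of 11 and 3. The overlap of calls over all genes was not counted here either. From KLRG1- to KLRG1+ mNK2, 1 of 28 passed, where 1.36% of all genes were called, 0.733% higher and 0.624% lower.

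By switching off pyruvate dehydrogenase, Pdk1 keeps pyruvate from becoming acetyl-CoA. In cWT it was at 57.5, 66.55 and 55.2 CPM in iNK, 21.3, 25.9 and 24.7 CPM in mNK1 and 7.21, 7.08 and 7.58 CPM in mNK2. The 3 stages did not overlap, and the log2 fold changes were -1.32 ± 0.12 (adjusted p = 1.09e-08) and -1.715 ± 0.13 (adjusted p = 9.28e-10). In WT it was at 57.5, 56.35, 64.9 and 53.4 CPM in iNK, 25.02, 30.3, 27.2 and 27.8 CPM in mNK1 and 17.9, 13.9, 10.2 and 8.45 CPM in KLRG1- mNK2. These did not overlap either, and the log2 fold changes were -1.07 ± 0.185 (adjusted p = 0.000293) and -1.13 ± 0.19 (adjusted p = 0.000307). All of these calls held under every alternative run. In KLRG1+ mNK2 it was at 8.635, 9.02, 6.29 and 7.515 CPM, which overlapped KLRG1- mNK2, and the difference between them passed only without KLRG1- replicate 4. The highest stage mean was 8.19 times the lowest in cWT, 8.59 times in cKO and 7.38 times in WT, where the median over 21, 20 and 20 genes at 5 CPM or more was 1.28, 1.30 and 1.355 times.

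The genes of lactate handling moved in different directions. Ldhb, the subunit best known for turning lactate back into pyruvate, was at 14.65, 12.8 and 10.2 CPM in cWT iNK, 2.24, 1.55 and 0.749 CPM in mNK1 and 0.455, 0.409 and 0.07435 CPM in mNK2. The stages did not overlap, with log2 fold changes of -3.05 ± 0.34 (adjusted p = 3.03e-07) and -2.23 ± 0.47 (adjusted p = 0.001175), and the mNK2 levels rest on 1 to 6 counts per library. Slc16a1 was at 25.7, 29.9 and 27.9 CPM in cWT iNK, 16.6, 18.6 and 17.7 CPM in mNK1 and 8.20, 8.38 and 11.1 CPM in mNK2. It fell at both steps without overlap, with log2 fold changes of -0.66 and -0.94.

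Slc16a3 was at 4.36, 4.41 and 4.57 CPM in cWT iNK and 9.045, 6.37 and 9.80 CPM in mNK1, a rise of 0.915 ± 0.24 without overlap (log2, adjusted p = 0.00714). In mNK2 it was at 5.92, 5.65 and 5.87 CPM, below every mNK1 library, with a log2 fold change of -0.53 ± 0.24 that did not pass. In cKO the same step passed, and Slc16a3 fell by 1.01 (log2). Per kb, Slc16a1 held 85.95% ± 0.858 (SD, n = 3) of the summed level of both transporters in cWT iNK, 67.4% ± 5.785 in mNK1 and 60.55% ± 3.84 in mNK2.

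Ldha was at 1157, 1274 and 1134 CPM in cWT iNK, 1022, 1110 and 1125 CPM in mNK1 and 812, 844 and 862 CPM in mNK2. The first step did not pass, and at the second the groups did not overlap, with a log2 fold change of -0.37 ± 0.09 (adjusted p = 0.00363). In WT it was at 559, 624, 607 and 597 CPM in mNK1 and 440.5, 445, 463 and 475 CPM in KLRG1- mNK2. The groups did not overlap, and the log2 fold change was -0.39 ± 0.08 (adjusted p = 0.00138).

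Upper glycolysis split by gene. Pfkp was at 310.0, 338.5 and 301.5 CPM in cWT iNK and 452, 453 and 483 CPM in mNK1, a rise of 0.55 ± 0.105 (log2, adjusted p = 0.000491). In WT it was at 346, 334, 342 and 318 CPM in iNK and 427, 434, 423 and 437 CPM in mNK1, a rise of 0.36 ± 0.07 (adjusted p = 0.000679). In both sets of animals every mNK1 library lay above every iNK library. Gpi1, which turns glucose phosphate into fructose phosphate, was at 281, 263 and 273 CPM in cWT mNK1 and 169, 181 and 172 CPM in mNK2. In WT it was at 249, 245, 253 and 224 CPM in mNK1 and 142, 181, 168 and 166 CPM in KLRG1- mNK2. It fell without overlap in both, with log2 fold changes of -0.65 ± 0.09 (adjusted p = 1.74e-05) and -0.56 ± 0.10 (adjusted p = 0.000327).

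**Figure D3:**
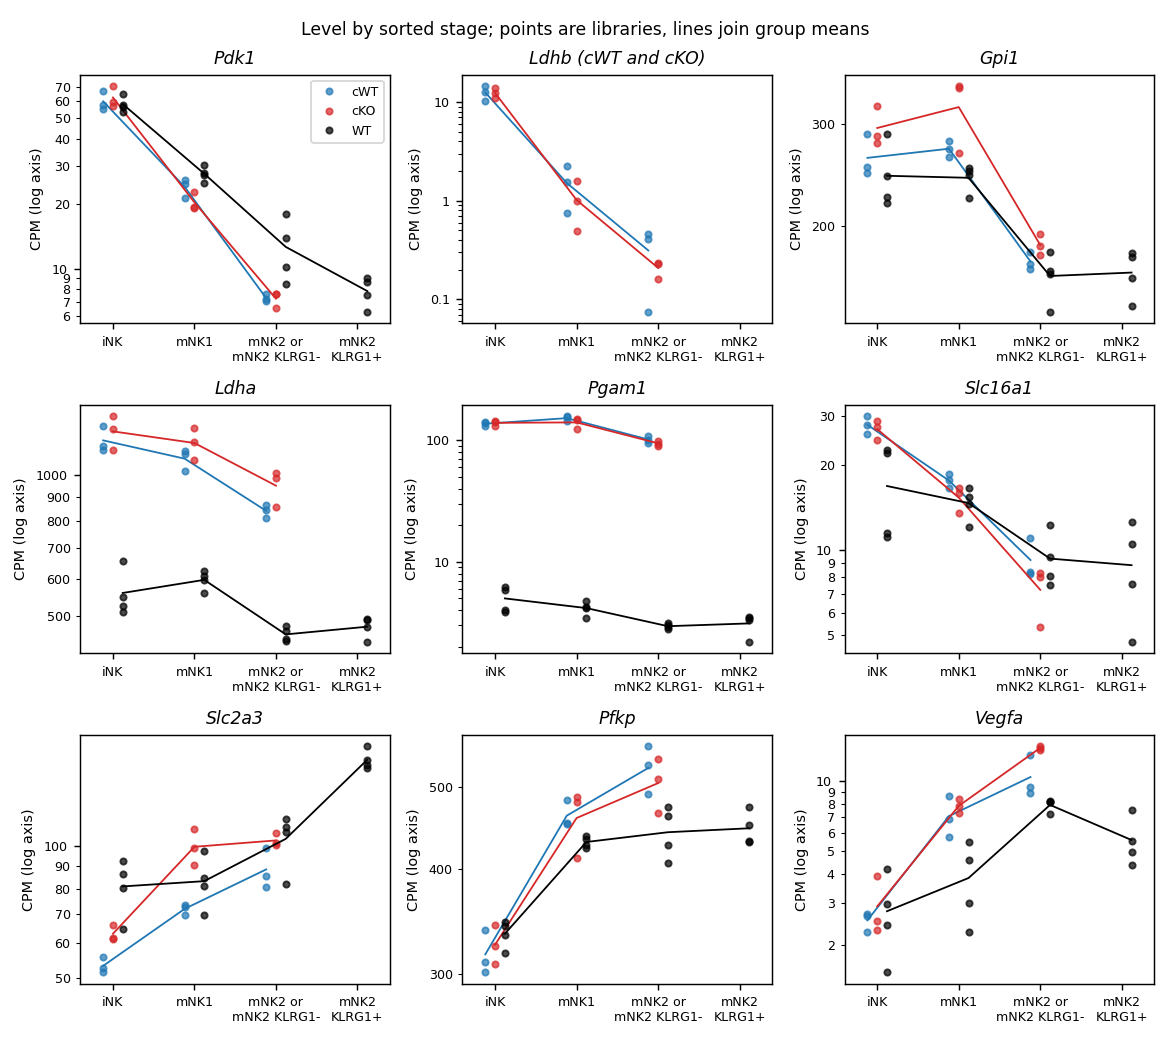
Level of 9 genes in CPM on log axes by sorted stage, with 1 point per library and lines through group means, in cWT (blue), cKO (red) and WT (black); Ldhb is shown for cWT and cKO, since some WT libraries are at 0. Pdk1 steps down from stage to stage in all 3 sets, Gpi1 drops after mNK1, Pfkp steps up after iNK, and Ldha and Pgam1 lie lower in WT than in the conditional libraries throughout.

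Tpi1, which interconverts the 3-carbon sugars, was at 310.0, 354 and 325 CPM in cWT iNK and 410.3, 434 and 417 CPM in mNK1, a rise of 0.35 ± 0.08 without overlap (log2, adjusted p = 0.00205). Hk2 was at 2.82, 3.59 and 2.93 CPM in cWT mNK1 and 0.304, 0.749 and 1.34 CPM in mNK2, the latter from 4 to 18 counts per library. It fell by 1.955 (log2), a call that was lost without mNK2 replicate 1. In cKO it passed at both steps, with log2 fold changes of 1.48, a call lost in 3 of 11 alternatives, and -3.40. Aldoc, the brain aldolase, was at 5.93, 4.89 and 3.88 CPM in cWT mNK1 and 2.58, 2.315 and 2.38 CPM in mNK2. It fell by 1.01 (log2), a call that was lost in 4 of 11 alternatives, each of which left out 1 library.

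In lower glycolysis Gapdh, which carries out the oxidising step, was at 1211, 1272 and 1182 CPM in cWT mNK1 and 953.5, 908 and 760.1 CPM in mNK2. Pgam1, which moves a phosphate group within the molecule, was at 143, 154 and 158 CPM in mNK1 and 95.5, 108 and 100.1 CPM in mNK2. Both fell without overlap, with log2 fold changes of -0.48 ± 0.09 (adjusted p = 0.000191) and -0.58 ± 0.08 (adjusted p = 6.445e-06). The same step in WT gave -0.45 ± 0.17 for Gapdh and -0.49 ± 0.37 for Pgam1, at mNK1 means of 24.15 and 4.16 CPM, and neither passed. The edgeR test called Pkm, Pgk1, Hk1, Pfkl, Pfkm, Aldoa, Slc2a1, Pfkfb3 and Pfkfb4 in none of the cWT, cKO and WT stage comparisons. From cWT mNK1 to mNK2, Hk1 was called higher without mNK1 replicate 3. In the libraries labelled cKO, Pfkl was called lower from iNK to mNK1 under the filter at 5 CPM and without iNK replicate 2 or mNK1 replicate 2. From mNK1 to mNK2 there, Pfkfb3 was called lower under the filter at 5 CPM and Aldoa lower without mNK1 replicate 3.

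Slc2a3 was at 51.4, 55.65 and 52.6 CPM in cWT iNK, at the mNK1 levels given above and at 80.8, 85.7 and 99.2 CPM in mNK2. The stages did not overlap, and it rose by 0.43 ± 0.10 and 0.30 ± 0.10 (log2, adjusted p = 0.00289 and 0.0356), the second of which was lost without mNK1 replicate 1 or 2 or mNK2 replicate 2 or 3. In WT the means of iNK and mNK1 were 80.9 and 83.2 CPM, with overlapping libraries. KLRG1- mNK2 was at 82.05, 111, 115 and 108 CPM and KLRG1+ mNK2 at 151, 158, 153 and 169.6 CPM. Every KLRG1+ library lay above every KLRG1- library, by 0.60 ± 0.12 (log2, adjusted p = 0.007445), and Slc2a3 was the 1 gene of the 28 to pass. Per kb, Slc2a3 held 33.7% ± 0.657 (SD, n = 3) of the summed level of both glucose transporters in cWT iNK and 41.02% ± 1.07 in cWT mNK2. In the WT subsets it held 40.7% ± 3.94 (SD, n = 4) in iNK, 35.9% ± 3.745 in mNK1, 38.5% ± 5.145 in KLRG1- and 49.5% ± 2.46 in KLRG1+ mNK2.

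The oxygen switch and the hypoxia targets moved in both directions. Vegfa, an angiogenic growth factor, was at 2.71, 2.27 and 2.64 CPM in cWT iNK and 6.87, 5.75 and 8.58 CPM in mNK1, a rise of 1.47 ± 0.225 (log2, adjusted p = 2.99e-05). Bnip3 was at the cWT iNK levels given above and at 30.97, 41.02 and 37.4 CPM in mNK1, a rise of 0.60 ± 0.12 (adjusted p = 0.0005425). Neither overlapped between iNK and mNK1. Egln3, an inducible prolyl hydroxylase, was at 10.5, 7.84 and 8.73 CPM in cWT iNK, 5.50, 3.77 and 3.27 CPM in mNK1 and 1.14, 0.545 and 1.34 CPM in mNK2. It fell without overlap, with log2 fold changes of -1.11 and -2.05, and the first of these calls was lost in 5 of 11 alternatives. Ddit4, an inhibitor of mTORC1, fell by 0.765 (log2, adjusted p = 0.0331) from WT iNK at 43.65, 32.6, 27.1 and 22.3 CPM to mNK1 at 16.8, 22.8, 22.4 and 11.8 CPM. The groups overlapped, and the call was lost in 5 of 14 alternatives. Hif1a had means of 53.1, 45.8 and 42.9 CPM in cWT iNK, mNK1 and mNK2, and edgeR called Hif1a, Egln1 and P4ha1, a collagen prolyl hydroxylase, at no stage step. From WT mNK1 to KLRG1- mNK2, DESeq2 and the fit of only the compared groups called Hif1a lower, where the log2 fold change was -0.405 ± 0.13 (edgeR adjusted p = 0.0672). The filter at 5 CPM called it lower from mNK1 to mNK2 in the libraries labelled cKO, where it was -0.26 ± 0.10 (adjusted p = 0.0791).

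**Figure D4:**
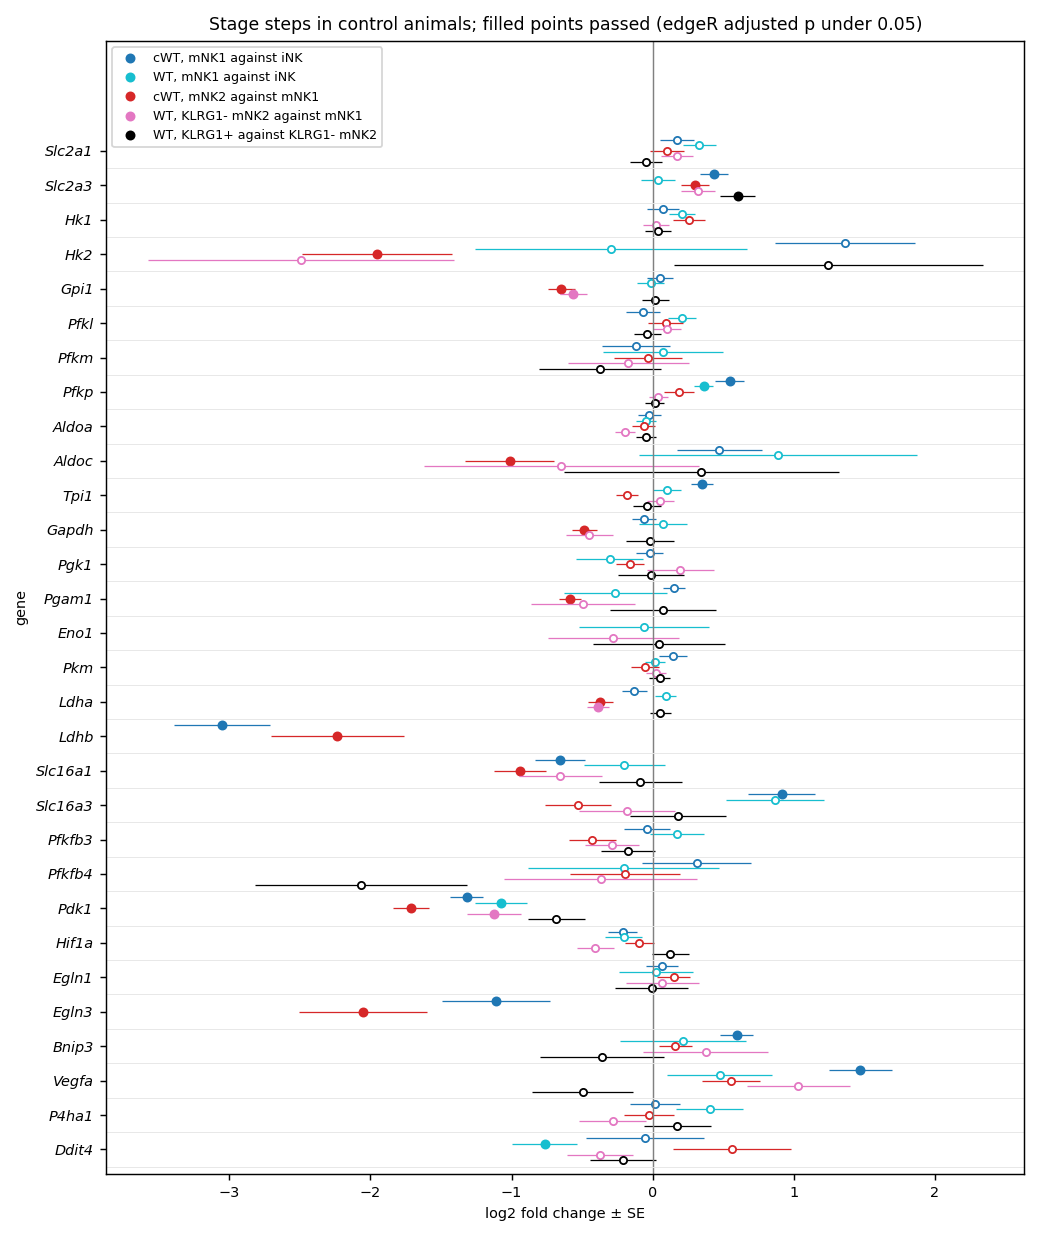
Log2 fold change of 30 genes (Eno2 was not tested) at 5 stage steps in cWT and WT animals; bars are SE and filled points passed the edgeR test. Pdk1 has filled points at both steps in both sets of animals, and the one filled black point, for KLRG1+ against KLRG1- mNK2, is that of Slc2a3.

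Markers of other cells moved with the stages. All 10 T cell markers were above the floor in cWT iNK and mNK1 and 9 in mNK2, and they summed to 1679 to 2453 CPM in iNK, 265 to 272 CPM in mNK1 and 83.55 to 91.9 CPM in mNK2. In WT they summed to 887 to 1088 CPM in iNK, 180.4 to 189.8 CPM in mNK1 and 34.3 to 46.9 CPM in KLRG1- mNK2, where Cd8a and Cd5 were at 0 in all libraries. In cWT the B cell markers went from 527 to 821 CPM with 10 of 10 above the floor in iNK to 35.8 to 44.1 CPM with 8 of 10 in mNK1. Of the 9 neutrophil markers 2 were above the floor in cWT iNK, where S100a8 and S100a9 were at 0, and all 9 in mNK1 and mNK2, with sums of 20.1 to 25.5, 71.96 to 274 and 46.5 to 193 CPM. The 10 myeloid and dendritic cell markers summed to 575 to 658 CPM in cWT iNK, 1728 to 2005 CPM in mNK1, where Clec9a was at 0, and 830.3 to 1039 CPM in mNK2. All 14 cell cycle genes were above the floor, at 906 to 1172 CPM in cWT mNK1 and 453 to 466 CPM in mNK2, and at 534 to 654 CPM in WT mNK1 and 288 to 343 CPM in KLRG1- mNK2. From KLRG1- to KLRG1+ mNK2, where Slc2a3 passed, the 10 NK stage genes summed to 2962 to 3577 and 5725 to 5929 CPM, with 5 called higher and 3 lower. The 14 cell cycle genes summed to 288 to 343 and 399 to 480.3 CPM, with 8 of the 14 called higher. The neutrophil markers summed to 3.30 to 84.4 CPM with 9 of 9 above the floor in KLRG1- and 0.442 to 23.4 CPM with 6 of 9 in KLRG1+ mNK2, where Mmp8, Mmp9 and Cxcr2 were at 0. The myeloid and dendritic cell markers summed to 465 to 579.8 and 350.4 to 410.1 CPM. The part of these measures in the stage differences was not tested.

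Of the other pathway genes, the first cWT step called 3 higher and 1 lower of 19 other glycolysis genes, 1 higher of 8 of the pentose phosphate pathway, 8 higher and 1 lower of 28 other hypoxia targets and 3 higher and 6 lower of 21 genes of mTORC1, MYC and nutrient uptake. It called 0 of 13 genes of pyruvate entry and 0 of 9 of the HIF pathway, with 0 and 1 at an unadjusted p under 0.05 and 0 and 0 called by DESeq2. Over the 6 lists edgeR called 23 of 98 genes, where 18.5% of all genes were called. DESeq2 called 24 of the 98 and 2372 of all genes. Of the genes called higher, those with the smallest p were Anxa2, a membrane-binding annexin, which rose by 0.905, Slc2a6 by 1.37 and the hexokinase gene Hk3 by 1.44 (log2). Of those called lower it was Tfrc, the transferrin receptor, which fell by 0.88 (log2). Myc, a transcription factor of growth metabolism, was at 186.5 CPM in cWT iNK, 136 CPM in mNK1 and 67.7 CPM in mNK2. It fell at both steps, with log2 fold changes of -0.45 and -1.01, and in WT with -1.025 from mNK1 to KLRG1- mNK2 and -0.62 from there to KLRG1+ mNK2.

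At the second cWT step 2 higher and 5 lower of the other glycolysis genes passed, 1 higher and 1 lower of those of pyruvate entry, 1 lower of the pentose phosphate pathway, 1 higher of the HIF pathway, 2 higher and 3 lower of the other hypoxia targets and 2 higher and 2 lower of mTORC1, MYC and nutrient uptake. Over these lists that is 20 of 98 genes, near the 20.3% of all genes that were called. Selenbp1, a selenium-binding protein, rose by 1.25, Slc16a6 by 0.79 and Pgm1, which converts glucose phosphates, by 0.505 (log2). Hk3 fell by 2.08 and Ndrg1, a hypoxia-induced gene, fell by 1.57. Hk3 had means of 15.3 CPM in cWT iNK, 41.5 CPM in mNK1 and 9.83 CPM in mNK2, with its highest mean in the stage where the myeloid and neutrophil marker sums were also highest. The part of these sums in the level of Hk3 was not tested.

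Whether the stage steps differed between the genotypes was tested as an interaction. The edgeR test called 0 of 29 genes at either step, where 0% and 0.00816% of all genes were called, those at the second step lower. Of the 29 genes, 0 had an unadjusted p under 0.05. DESeq2 called 0 of them, where it called 4 of all genes at the first step and 22 at the second. For Slc2a3 the step in cKO minus that in cWT was 0.23 ± 0.14 from iNK to mNK1 and -0.25 ± 0.14 from mNK1 to mNK2 (log2), and for Aldoa 0.09 ± 0.115 and -0.11 ± 0.115. The differences between the libraries labelled cKO and cWT, which passed for both genes in mNK1, are thus not shown to differ from those in iNK or mNK2.

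Several genes stood at very different levels in the experiments, which share no group and were not normalised together, so these levels carry no test. As means over iNK and mNK1, Gapdh was at 1248 CPM in cWT and 23.55 CPM in WT, and Pgk1, which makes the first ATP of glycolysis, at 181 and 8.32 CPM. Pgam1 was at 144 and 4.58 CPM. Eno1 had 0 counts in all 24 conditional libraries and 2.88 CPM in WT. By contrast Pdk1 was at 41.85 and 42.8 CPM and Pfkp at 389.5 and 382.5 CPM.

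These genes differ in how much of their sequence they share with other genes, counted as 50-base words of the transcript that also occur in transcripts of other annotated genes. The share was 82.5% for Gapdh, whose words occur in 222 other genes, 215 of them pseudogenes, 72.2% for Eno1, 68.0% for Pgk1, 62.4% for Bnip3 and 41.5% for Pgam1. It was 25.3% for Gpi1, 17.1% for Pfkp, 16.6% for Ldha, 13.5% for Aldoa and 0 for Pdk1 and Slc2a3. Across the 24 genes at 5 CPM or more in cWT, this share and the log2 ratio of the WT to the cWT level had a Spearman rho of -0.56 and a Pearson r of -0.81, a description over genes of the same libraries. The 7 genes that share 20% or more had ratios of 0.0189 to 0.91, and the 17 others of 0.188 to 2.13. Egln1 and Egln3, with 0 shared words, were also lower in WT, at ratios of 0.188 and 0.2, and Ddit4, with 0, was at 1.84 CPM in cWT and 24.9 CPM in WT. The part of read placement among copies in these levels was not tested. Reads of Gapdh, Pgk1, Pgam1, Eno1, Bnip3, Pkm, Ldhb and Gpi1 may be split among the genes that share their words. The same holds, at smaller shares, for Pfkp, Ldha and Aldoa.

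**Figure D5:**
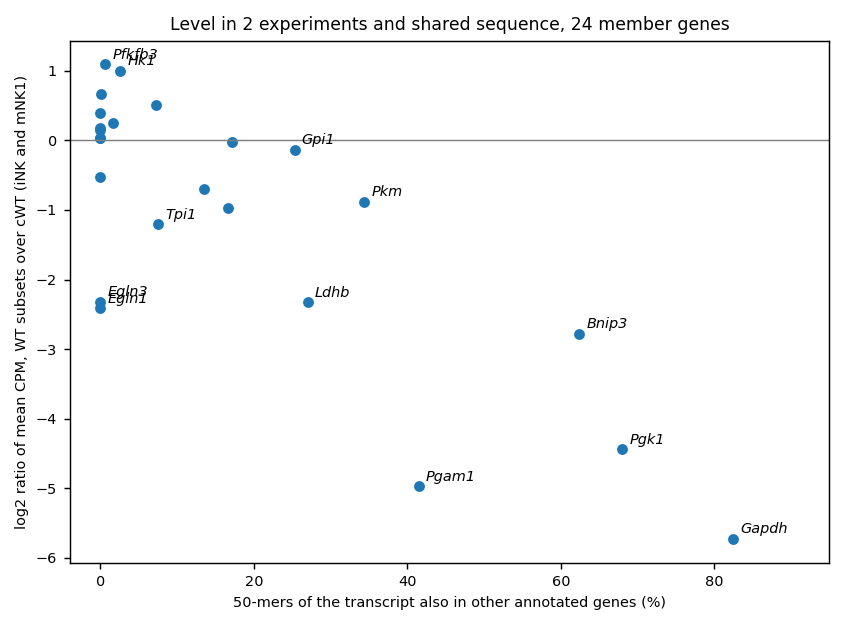
For the 24 genes at 5 CPM or more in cWT, the share of 50-base words of the transcript that occur in other annotated genes (horizontal, %) and the log2 ratio of mean CPM in WT over cWT, taken over iNK and mNK1 (vertical), with 1 point per gene. Gapdh, Pgam1 and Pgk1 lie lowest, at shares of 41.5% or more, while Egln1 and Egln3 lie low at a share of 0.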

How the data were processed

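Counts of reads per gene symbol were used as the authors deposited them, for 48 libraries. Per the labels' protocols, RNA was purified with an RNeasy Plus kit and libraries were made with SMARTer chemistry. Per the submitters' processing notes, FastQC and STAR 2.5.0 were used with genome build mm9. The counting program, the annotation, the strand setting and the read length were not given in the sources used here, so overlapping and antisense genes cannot be told apart.

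The 3 experiments were fitted apart over all genes that passed filterByExpr (10614 in the chimeras, 11051 for the WT subsets and 12258 for the conditional libraries), with TMM factors and the quasi-likelihood F test of edgeR 4.0.16 (R 4.3.3, limma 3.58.1). The Benjamini-Hochberg method adjusted p over all genes tested, and values under 0.05 count as calls. Fold changes carry their SE. The detection floor of 3 counts in a library is 0.232 to 0.351 CPM in the chimeras, 0.252 to 0.334 CPM for the WT subsets and 0.143 to 0.220 CPM for the conditional libraries, and covers counting error only. Markers were counted as above the floor by more than 3 counts summed over the libraries of a group, a looser rule. Of 60 pairs of libraries within a group, 0 were identical. The genes and all lists were chosen with earlier results of these data known. All 31 genes were open to naming, and of the other pathway lists up to 3 higher and 3 lower called genes with the smallest p in a comparison. Shared words were counted in GENCODE transcripts of GRCm38.

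The labels do not say whether equal replicate numbers pair libraries, and no comparison had every correlation of residuals between equal numbers over 0.1. In the chimeras these correlations were 0.093 to 0.136, and each of the 8 libraries was closest to the one of equal number. A pairing there is thus neither shown nor excluded. Alternatives were DESeq2 1.42.0, RLE factors, the test without a low-count filter or with one of 5 CPM, and the replicate number as a block. Further ones were only the groups compared, CPM without Rn45s and without TMM factors, and each library left out in turn.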

Additional observations from a re-analysis of the deposited data

Results flagged for a closer look

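Among 129 combinations of a gene and a group of 4 libraries with a mean of at least 5 CPM, 5 held 1 library far from the others by Dixon's 95% criterion, where chance gives about 1 in 20. In WT iNK, Tpi1 was at 133.6 CPM in replicate 4 beside 162.6 to 166.8 CPM in the others, and Hif1a at 57.62 CPM in replicate 2 beside 79.34 to 81.93 CPM. In KLRG1- mNK2, replicate 4 had Pfkl at 133.6 CPM beside 106.5 to 110.1 CPM and Vegfa at 7.202 CPM beside 8.081 to 8.173 CPM. In the chimera KO group, Pfkm was at 9.446 CPM in replicate 4 beside 10.47 to 10.60 CPM.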

How the results depend on the processing

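Under RLE factors, DESeq2 and no low-count filter the count of genes called stayed within 1.5 times of the reported one in all 14 comparisons, and no called fold change turned its direction under any alternative run. With the replicate number as a block the chimera count was 6 (Aldoa, Pfkp, Pkm, Slc16a3 and Slc2a3 higher, Slc16a1 lower) in place of 2. Over all genes the block called 742 in place of 531. The correlation of equal numbers there was 0.093 to 0.136, and each of the 8 libraries was closest to the one that shares its number, as they were between KLRG1- mNK2 and either mNK1 or KLRG1+ mNK2, a hint from the data and not the design. The block moved no other count by over 1.5 times. It added Slc2a1 higher from WT iNK to mNK1 and Hif1a lower from WT mNK1 to KLRG1- mNK2. From cWT mNK1 to mNK2 it added Vegfa higher and Tpi1 lower. In the libraries labelled cKO it added Egln3 lower from iNK to mNK1 and lost Aldoc from mNK1 to mNK2. Fitting only the compared groups gave 0 in mNK1 between the genotypes, where 12 of all genes were called in place of 70. The filter at 5 CPM gave 7 from cWT mNK1 to mNK2 in place of 11, since Hk2, Aldoc, Ldhb and Egln3 were then not tested. All genes called there were 2074 in place of 2483. With 1 library left out, the counts were 1 to 3 in the chimeras, 0 to 1 in NK, 0 to 2 in mNK1 and 1 to 2 between KLRG1+ and KLRG1- mNK2. Over all genes the calls were then 383 to 672, 36 to 69, 26 to 92 and 107 to 185, in that order. Where no cause is named, the cause was not tested. Leaving both Rn45s and the TMM factors out of the totals moved 212 of 434 group levels by more than their SD. The parts of these changes were not separated. RLE factors in place of TMM factors moved 2. Depth limits Hk2, Ldhb, Egln3 and Eno2, which was too low to be tested, and Egln3 had 0 counts in all KLRG1- mNK2 libraries, whose floors lie within 0.252 to 0.334 CPM.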
